A study of Mus musculus with 14 samples.

Results

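Secreted Wnt antagonists and the WISP genes were followed in left ventricular RNA of mice after pressure overload. The 10 genes were Frzb, Sfrp1, Sfrp2, Sfrp4, Sfrp5, Dkk2, Dkk3, Wif1, Wisp1 and Wisp2. They were found by gene symbol among the 49315 genes of the count table, and each symbol matched 1 gene. This set of families was chosen by its read levels over the 4 groups of these same samples, so levels and group differences of the 10 genes are given as a description and not as tests. For 8 of the 10 there were enough reads for a fit, alongside 15292 genes in all. Sfrp4 and Dkk2 had too few.

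The study compared wild-type (WT) mice with HCN4F mice, a knock-in line in which tyrosine is exchanged for phenylalanine in exon 4 of Hcn4, the gene of a pacemaker channel. Male mice of both genotypes had transverse aortic constriction (TAC), which narrows the aorta and loads the left ventricle, or Sham surgery at an age of 10 to 12 weeks, and hearts were taken 5 weeks later. Polyadenylated RNA of the left ventricle was sequenced. Of the 16 samples described, 4 per group, 14 were used here, with 4 WT-Sham, 4 HCN4F-Sham, 4 HCN4F-TAC and 2 WT-TAC libraries (replicates 2 and 3). Further WT-TAC samples are not analysed here. The knock-in is not limited to a cell type, so no group tells which cells a difference comes from. Whether the HCN4F mice were homozygous is not given in the sources used here.

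Total counts per library ran from 22309914 to 35210939. At these depths a count of 0 allows a level of up to 0.0859 to 0.137 CPM, taking 3 counts as the limit (counting error only). CPM is the count of a gene scaled to a common library size (CPM after TMM normalization, which adjusts for differences in RNA composition). The knock-in exchanges an amino acid, so the level of Hcn4 is no check of the genotype. It was 6.36 to 12.99 CPM in HCN4F-Sham and 8.07 to 10.6 CPM in WT-Sham. After TAC it was 3.49 to 9.07 CPM in HCN4F and 11.9 to 13.45 CPM in WT, with ranges apart and a log2 difference of -0.92 ± 0.31 (SE) that was not called (adjusted p = 0.24, edgeR quasi-likelihood). The 5 cardiomyocyte markers (Myh6, Tnnt2, Actc1, Myl2 and Ryr2) were abundant in every library, with the ventricular light chain Myl2 between 5039 and 7535 CPM. Their sum was lowest in HCN4F-TAC, at 46263.2 to 51696.1 CPM. It was 61355.6 to 63493.7 CPM in WT-Sham, 53764.1 to 56841.5 in HCN4F-Sham and 57419.3 to 57532.5 in WT-TAC. The HCN4F-TAC replicate 2 library stood apart by its atrial markers (Sln, Myl4, Myl7 and Bmp10), which summed to 31.1 CPM, against 5.04 CPM in HCN4F-TAC replicate 4 and 1.24 to 3.59 CPM in the other 12 libraries.

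Wnt proteins are secreted ligands that bind Frizzled receptors and the LRP coreceptors, and in the canonical branch this stabilizes β-catenin, which then acts with TCF/LEF factors on target genes. Secreted frizzled-related proteins (SFRPs, with Frzb as a member) and WIF1 bind the ligands outside the cell, whereas several Dickkopf proteins (DKKs), DKK2 among them, bind the LRP coreceptors. WISP proteins belong to the CCN family of matricellular proteins and took their name from induction by a Wnt ligand. In the heart Wnt signalling is known mainly from development and from the response of fibroblasts and myocytes to injury.

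To compare levels between genes, CPM was divided by the exon length of each gene. In WT-Sham hearts Sfrp1 stood highest, with 3.54 ± 0.32 CPM per kb (SD, n = 4), followed by Wisp2 with 2.24 ± 0.411 and Sfrp2 with 1.61 ± 0.252. Frzb (0.780 ± 0.171), Sfrp5 (0.688 ± 0.350), Dkk3 (0.653 ± 0.0980) and Wif1 (0.619 ± 0.0791) lay within each other's spread, and Wisp1 was lower at 0.119 ± 0.0157 CPM per kb. Dkk2 and Sfrp4 were at the bottom, with 0.0373 ± 0.0221 and 0.0229 ± 0.0164 CPM per kb. The ranges of Sfrp1, Wisp2 and Sfrp2 were apart from those of Frzb and Dkk3, while those of Wisp2 (1.90 to 2.78) and Sfrp2 (1.41 to 1.97) overlapped.

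In HCN4F-TAC hearts the order was different at its upper end. Wisp2 was highest with 9.10 ± 2.00 CPM per kb (SD, n = 4), then Sfrp1 with 5.62 ± 2.06, Sfrp2 with 4.39 ± 1.62, Dkk3 with 3.72 ± 2.56 and Frzb with 3.13 ± 1.13. Sfrp1, Sfrp2, Dkk3 and Frzb overlapped in their ranges, and the range of Wisp2 (7.01 to 11.3) overlapped with those of Sfrp1 (3.56 to 8.02) and Dkk3 (1.44 to 7.21). Wif1 (0.326 ± 0.198), Wisp1 (0.261 ± 0.0496) and Sfrp5 (0.260 ± 0.182) formed a lower step, and Sfrp4 and Dkk2 stayed at the bottom.

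**Figure D1:**
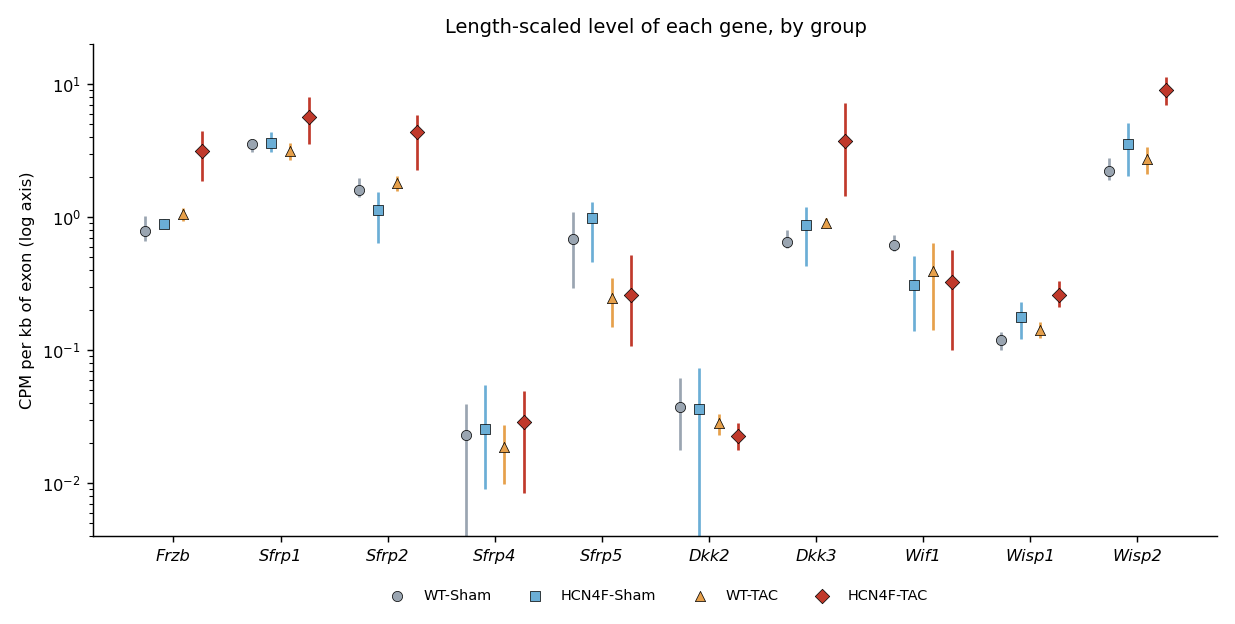
Level of each gene in CPM per kb of exon (log axis), with the mean of each group as a symbol and the lowest to highest library as a line. A line that meets the lower edge of the plot reaches a library with a count of 0 (Sfrp4 in WT-Sham and Dkk2 in HCN4F-Sham); Wisp2 is highest in HCN4F-TAC with a mean of 9.10 CPM per kb.

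Among the SFRPs, Frzb and Sfrp2 were at their highest in the HCN4F-TAC hearts, about 3.54 and 3.90 times the level of HCN4F-Sham, whereas WT-TAC lay near WT-Sham. Sfrp1 was higher in 2 of the 4 HCN4F-TAC libraries, Sfrp5 had a lower mean after TAC, with overlapping ranges and a call in HCN4F that was not stable to leaving out a library, and Sfrp4 was near 0. In bulk tissue a change in the number of cells of a type and a change in RNA per cell cannot be told apart.

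Frzb (ENSMUSG00000027004, GRCm38 chromosome 2, 80411970 to 80447625, minus strand) encodes the secreted antagonist also called SFRP3. It was at 2.14, 2.18, 3.33 and 2.45 CPM in the 4 WT-Sham libraries, at 2.71, 2.92, 2.68 and 3.14 CPM in HCN4F-Sham and at 3.04 and 3.78 CPM in WT-TAC. In HCN4F-TAC it was at 8.54, 14.5, 6.01 and 11.5 CPM. Every HCN4F-TAC library was above every library of the other groups, and the other groups lay close together. The difference between TAC and Sham was 1.82 ± 0.22 (log2, SE) in HCN4F, a 3.54-fold change, and 0.44 ± 0.29 in WT. Between the genotypes it was 1.56 ± 0.28 after TAC and 0.19 ± 0.24 after Sham surgery.

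Sfrp1 (ENSMUSG00000031548, chromosome 8, 23411502 to 23449632, plus strand) is the most abundant of the SFRPs here. It measured 13.4, 16.3, 16.3 and 15.9 CPM in WT-Sham, 14.8, 19.0, 15.5 and 13.4 CPM in HCN4F-Sham and 15.7 and 11.6 CPM in WT-TAC. The HCN4F-TAC libraries had 18.8, 35.1, 15.6 and 28.8 CPM. Replicates 2 and 4 were above all others, whereas replicates 1 and 3 fell within the Sham range. The log2 difference of TAC from Sham was 0.65 ± 0.21 (SE) in HCN4F and -0.18 ± 0.27 in WT, and that between HCN4F and WT after TAC was 0.85 ± 0.27.

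Sfrp2 (ENSMUSG00000027996, chromosome 3, 83766321 to 83774316, plus strand) is an SFRP known from fibroblasts. It was at 3.03, 3.19, 4.24 and 3.37 CPM in WT-Sham and at 2.48, 3.33, 1.37 and 2.57 CPM in HCN4F-Sham. WT-TAC hearts had 4.35 and 3.38 CPM and HCN4F-TAC hearts 8.75, 11.7, 4.84 and 12.5 CPM. All HCN4F-TAC libraries were above all others, with replicate 3 close to WT-TAC replicate 2. TAC differed from Sham by 1.96 ± 0.28 (log2, SE) in HCN4F, a 3.90-fold change, and by 0.15 ± 0.35 in WT. HCN4F exceeded WT by 1.30 ± 0.34 after TAC, while after Sham surgery the difference was -0.51 ± 0.30.

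Sfrp5 (ENSMUSG00000018822, chromosome 19, 42197971 to 42202252, minus strand), a further secreted antagonist of Wnt ligands, had lower means after TAC. Its levels were 0.998, 2.07, 1.61 and 0.555 CPM in WT-Sham, 2.07, 2.47, 0.868 and 2.02 CPM in HCN4F-Sham, 0.657 and 0.286 CPM in WT-TAC and 0.456, 0.329, 0.989 and 0.203 CPM in HCN4F-TAC. These levels rest on 5 to 67 counts per library. HCN4F-TAC replicate 3 overlapped with HCN4F-Sham replicate 3, and WT-TAC replicate 2 with WT-Sham replicate 4. The log2 difference of TAC from Sham was -1.87 ± 0.48 (SE) in HCN4F and -1.52 ± 0.64 in WT, and the genotypes differed by 0.15 ± 0.69 after TAC. Without HCN4F-TAC replicate 3 the difference in HCN4F was -2.47, and without replicate 2 (-1.71) or replicate 4 (-1.63), or with no filter on low counts (-1.86), it no longer passed the threshold of the fit. In WT it was not called, and the difference was -2.16 without WT-TAC replicate 2 and -0.98 without replicate 3. The difference between the genotypes after TAC had no stable direction, at 0.79 without WT-TAC replicate 2, -0.39 without WT-TAC replicate 3 and -0.45 without HCN4F-TAC replicate 3.

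Sfrp4 (ENSMUSG00000021319, chromosome 13, 19623104 to 19632994, plus strand) was at 0 to 6 counts per library, or 0 to 0.228 CPM. It had 5, 6, 1 and 1 counts in HCN4F-TAC and 3, 3, 0 and 5 counts in WT-Sham. With too few reads for a fit, its groups were not compared.

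Promoter sequence was available in RefSeq tables (GRCm38.p6) for 5 of the 10 genes (Frzb, Sfrp2, Sfrp5, Dkk2 and Wif1). The 250 bases before each start were searched on both strands for CTTTGA and CTTTGT, the core letters that TCF/LEF factors, the nuclear partners of β-catenin, are known to bind. CTTTGA was found before Frzb and none of the other 4, and CTTTGT before Dkk2 alone. Of all 32851 windows, 13.8% hold the former and 16.5% the latter, so a match in 1 of 5 is a description of letters only. Shown are the Frzb match, on the reverse strand and 95 bases before the RefSeq start (chr2:80447474-80447503, minus strand, inside an annotated GENCODE exon of Frzb), with the matched letters in capitals, and the 150 bases before Sfrp5 (chr19:42202253-42202402, minus strand), the SFRP called lower by TAC in HCN4F, in which neither word was found.
Frzb: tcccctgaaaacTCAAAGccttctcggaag
Sfrp5: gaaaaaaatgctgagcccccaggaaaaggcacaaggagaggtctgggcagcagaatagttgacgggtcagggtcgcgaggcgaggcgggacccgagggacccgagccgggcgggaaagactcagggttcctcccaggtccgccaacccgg

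Of the Dickkopf genes, Dkk3 rose in HCN4F-TAC and Dkk2 was near 0. Dkk3 (ENSMUSG00000030772, chromosome 7, 112116017 to 112159057, minus strand) encodes the most divergent member of its family, for which binding to the LRP coreceptors is not established. It measured 2.03, 1.96, 2.10 and 2.68 CPM in WT-Sham, 1.43, 3.01, 3.22 and 4.02 CPM in HCN4F-Sham and 3.29 and 2.78 CPM in WT-TAC. In HCN4F-TAC it was at 7.55, 24.2, 4.84 and 13.4 CPM. All 4 were above every other library, but they spread over a wide range, with replicate 2 at the top and replicate 3 at the bottom. TAC and Sham differed by 2.09 ± 0.45 (log2, SE) in HCN4F, a 4.26-fold change, and by 0.45 ± 0.59 in WT. HCN4F exceeded WT by 2.06 ± 0.58 after TAC. Without the replicate 2 library, the one with the highest sum of atrial markers, the difference was 1.54 in HCN4F between TAC and Sham. Between the genotypes after TAC it was then 1.49.

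Dkk2 (ENSMUSG00000028031, chromosome 3, 132085292 to 132180304, plus strand), a ligand of the LRP coreceptors, had 0 to 6 counts per library. It reached 0.274 CPM in HCN4F-Sham replicate 2 and was at 0 in HCN4F-Sham replicate 4. It was not fitted either, so its groups were not compared.

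Wif1 (ENSMUSG00000020218, chromosome 10, 121033960 to 121100650, plus strand) encodes Wnt inhibitory factor, which holds Wnt ligands through a domain of its own. It was at 1.48, 1.78, 1.42 and 1.34 CPM in WT-Sham and at 0.339, 1.05, 0.398 and 1.24 CPM in HCN4F-Sham. After TAC it was at 1.56 and 0.344 CPM in WT and at 0.622, 1.38, 0.918 and 0.244 CPM in HCN4F. WT-Sham was the tight and high group, and each of the other groups held both low and high libraries. HCN4F-Sham lay below WT-Sham in all libraries, with a log2 difference of -0.98 ± 0.49 (SE). TAC differed from Sham by -0.73 ± 0.60 in WT and by 0.09 ± 0.53 in HCN4F. Here the WT values depended on single libraries: without WT-TAC replicate 2 the difference in WT was -2.11, and without replicate 3 it was 0.06. The difference between the genotypes after TAC was -0.15 with both, 1.23 without replicate 2 and -0.94 without replicate 3.

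Of the WISP genes, Wisp2 was higher in HCN4F-TAC than in all other libraries, and Wisp1 higher than in WT libraries only. Wisp2 (ENSMUSG00000027656, chromosome 2, 163820861 to 163833146, plus strand) encodes a short CCN protein that lacks the C-terminal domain of its relatives. Its levels were 3.73, 4.50, 5.35 and 3.66 CPM in WT-Sham, 3.92, 9.72, 8.46 and 5.37 CPM in HCN4F-Sham and 4.03 and 6.53 CPM in WT-TAC. HCN4F-TAC hearts had 15.1, 19.8, 13.5 and 21.7 CPM, all above the highest of the other libraries. The log2 difference of TAC from Sham was 1.36 ± 0.26 (SE) in HCN4F, a 2.57-fold change, and 0.31 ± 0.33 in WT. HCN4F exceeded WT by 1.71 ± 0.33 after TAC and by 0.66 ± 0.27 after Sham surgery, where the ranges overlapped.

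Wisp1 (ENSMUSG00000005124, chromosome 15, 66891320 to 66923201, plus strand), a matricellular protein first found as a Wnt-induced gene, rested on 15 to 52 counts per library. It was at 0.554, 0.653, 0.765 and 0.686 CPM in WT-Sham, at 0.678, 1.28, 1.12 and 0.876 CPM in HCN4F-Sham and at 0.904 and 0.687 CPM in WT-TAC. The HCN4F-TAC libraries had 1.41, 1.38, 1.84 and 1.18 CPM. They were all above WT-Sham and WT-TAC but overlapped with HCN4F-Sham. The log2 difference between the genotypes was 0.89 ± 0.29 (SE) after TAC and 0.56 ± 0.24 after Sham surgery, and that between TAC and Sham was 0.57 ± 0.22 in HCN4F and 0.24 ± 0.30 in WT.

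**Figure D2:**
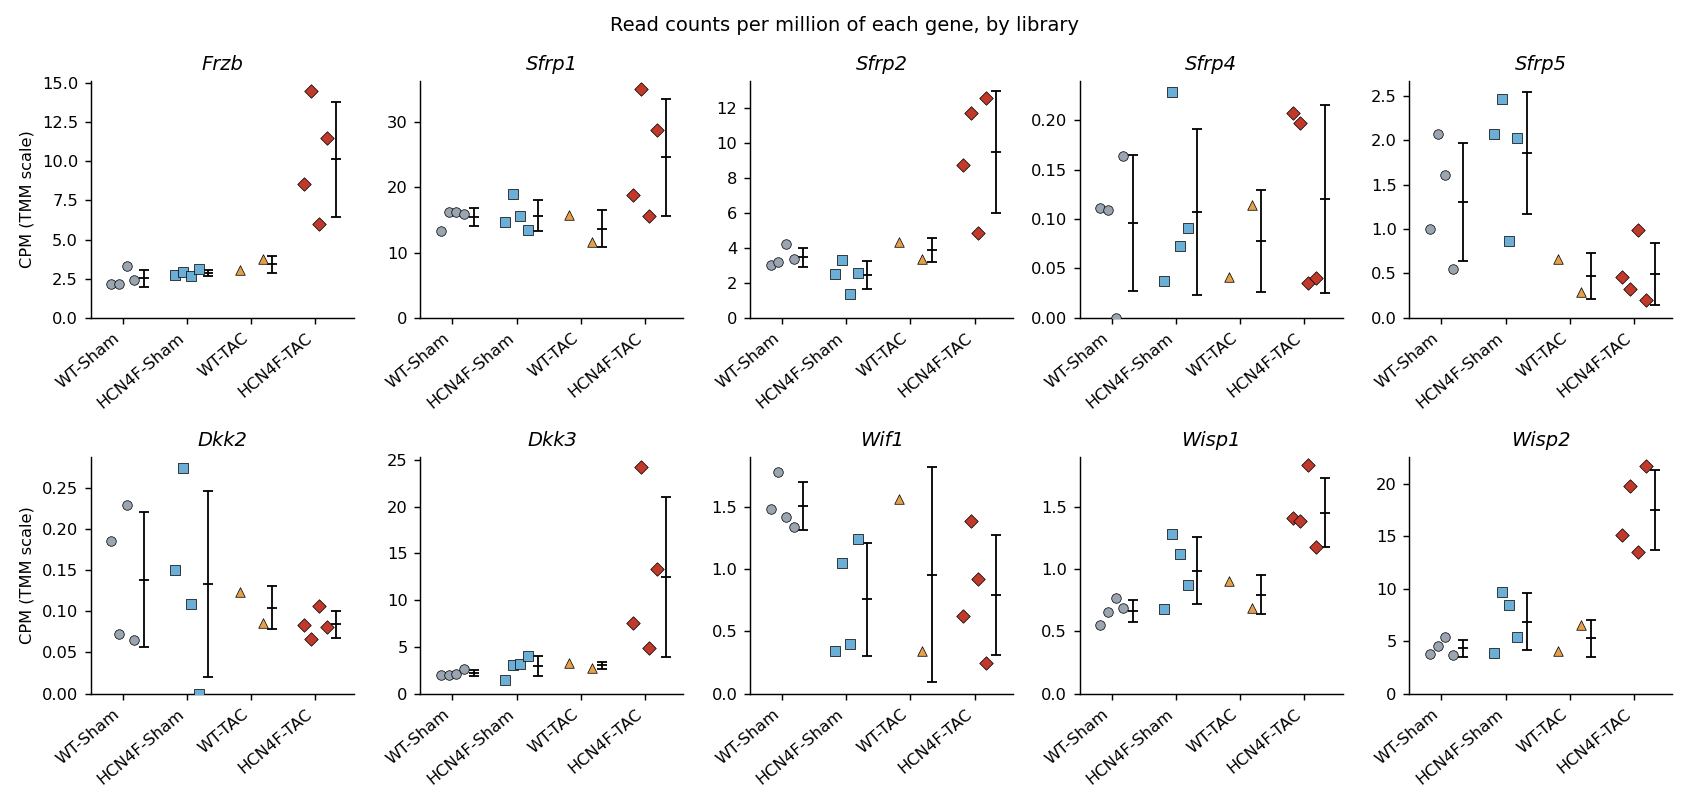
CPM of each of the 10 genes in every library, by group (linear axes from 0, one scale per gene), with the mean ± SD of each group in black. For Frzb, Sfrp2, Dkk3 and Wisp2 the 4 HCN4F-TAC libraries lie above all others, whereas for Sfrp5 the TAC and Sham libraries overlap in both genotypes and Sfrp4 and Dkk2 reach at most 0.228 and 0.274 CPM.

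Over the 8 genes fitted, a call meant an adjusted p below 0.05 together with a log2 difference of more than 1 in size. In WT, TAC against Sham called 0 of the 8 with edgeR, with 1 at an unadjusted p under 0.05 (Sfrp5) and 0 by DESeq2, beside 0.706% of all genes. The ranges of TAC and Sham were apart in 1 of the 8 (Dkk3, higher), beside 19.2% of all genes that were higher without overlap in this comparison of 2 with 4 libraries. The median log2 fold change of the 8 was 0.20, and -0.02 over all genes.

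In HCN4F, TAC against Sham called 5 of the 8, beside 2.75% of all genes. Frzb, Sfrp2, Dkk3 and Wisp2 were called higher, beside 1.58% of all genes, and Sfrp5 was called lower, beside 1.16%. The ranges of the same 4 higher genes were apart, as for 7.95% of all genes. The median log2 fold change was 1.01, and -0.01 over all genes. Since the genes were selected on these levels, nothing is read from their share against that of all genes.

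Between the genotypes after Sham surgery 0 of the 8 were called with edgeR, with 2 at an unadjusted p under 0.05 (Wisp1 and Wisp2, both higher in HCN4F) and 0 by DESeq2, beside 0.209% of all genes. Wif1 alone had ranges apart, lower in HCN4F, as did 4.67% of all genes. The median of the 8 was 0.30, and 0.00 over all genes.

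Between the genotypes after TAC 1 of the 8 was called, Frzb, beside 0.0719% of all genes in either direction and 0.0392% higher in HCN4F. Ranges were apart for 5 of the 8 (Frzb, Sfrp2, Dkk3, Wisp1 and Wisp2, all higher in HCN4F), as for 11.3% of all genes. The median of the 8 was 1.09, and 0.00 over all genes. With DESeq2 4 of the 8 were called (Dkk3, Frzb, Sfrp2 and Wisp2), beside 0.569% of all genes with that tool, and with edgeR on the compared groups alone 0 were. The call for Frzb lay near the threshold: it was kept in 3 of the 14 fits that each left out 1 library, with log2 differences from 1.32 to 1.75. Leaving out HCN4F-TAC replicate 3 gave 5 calls, Frzb (1.75), Sfrp1 (1.02), Sfrp2 (1.52), Dkk3 (2.33) and Wisp2 (1.82), and leaving out WT-TAC replicate 2 or replicate 3 gave differences of 1.42 and 1.74 for Frzb with no call.

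Whether the response to TAC differs between the genotypes is asked by the interaction of genotype and surgery. With edgeR's quasi-likelihood test 0 of 15292 genes (0.0%) passed an adjusted p of 0.05, with 1418 at an unadjusted p under 0.05, and 40 passed with DESeq2. Of the 8 genes, 4 had an unadjusted p under 0.05 (Frzb, Sfrp1, Sfrp2 and Wisp2) and 1 passed with DESeq2, Sfrp2. The interaction was largest for Sfrp2 (1.81 ± 0.45, log2, SE), then Dkk3 (1.64 ± 0.75), Frzb (1.38 ± 0.37) and Wisp2 (1.05 ± 0.42), each the excess of the TAC difference in HCN4F over that in WT. It was -0.36 ± 0.82 for Sfrp5. These comparisons share their TAC and Sham libraries and are not independent of each other.

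**Figure D3:**
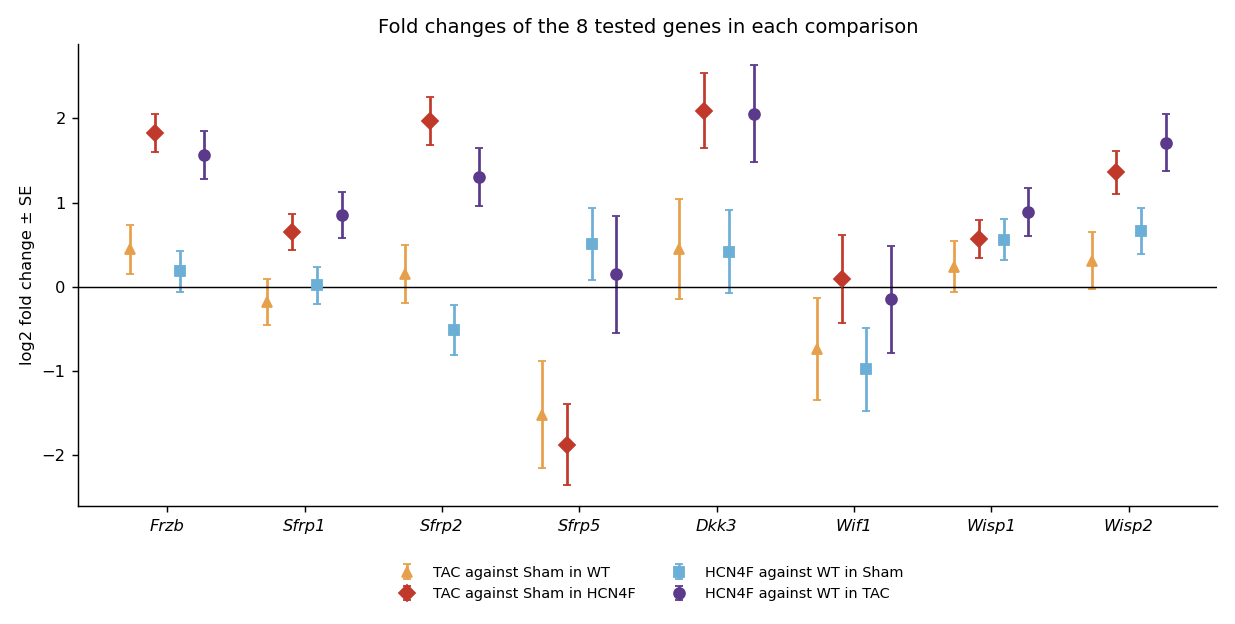
Log2 fold change ± SE of the 8 fitted genes in the 4 comparisons (symbols by comparison). Frzb, Sfrp2, Dkk3 and Wisp2 lie between 1.30 and 2.09 in TAC against Sham within HCN4F and in HCN4F against WT after TAC, and between -0.51 and 0.66 in the other comparisons.

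The 4 HCN4F-TAC libraries were ordered alike for several of these genes. Replicate 3 was lowest for Frzb, Sfrp1, Sfrp2, Dkk3 and Wisp2, and replicate 2 or 4 was highest. The summed level of 7 fibroblast markers (Pdgfra, Col1a1, Col1a2, Dcn, Lum, Tcf21 and Dpt) had the same order at its lower end, with 1048 CPM in replicate 1, 1204 in replicate 2, 774 in replicate 3 and 1161 in replicate 4. It was 672 to 688 CPM in WT-Sham, 648 to 826 in HCN4F-Sham and 602 to 706 in WT-TAC. This order was not particular to fibroblast markers. In HCN4F-TAC the sum of 4 macrophage markers (Adgre1, Csf1r, Cd68 and Mrc1) was also lowest in replicate 3 (58.4 CPM) and highest in replicate 4 (96.0 CPM). The sum of the 5 cardiomyocyte markers was lowest in replicate 2 (46263 CPM) and highest in replicate 1 (51696 CPM). None of the 7 fibroblast markers was at 0 in a library. Their sum follows mainly the collagen genes. From HCN4F-Sham to HCN4F-TAC mean Col1a1 went from 155 to 342 CPM and Col1a2 from 151 to 282.5 CPM. Pdgfra, Tcf21, Dcn, Lum and Dpt differed by 0.10, 0.06, 0.10, 0.51 and -0.20 (log2). Of the 7, 1 was called higher by TAC in HCN4F (Col1a1, log2 difference 1.14 ± 0.18, adjusted p = 0.00125 in edgeR's quasi-likelihood test) and the median was 0.10. Between the genotypes after TAC 0 of the 7 were called with edgeR, with 6 at an unadjusted p under 0.05 and 0 called by DESeq2. The ranges of 6 were apart, all higher in HCN4F, beside 11.3% of all genes, and the median was 0.48.

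The markers of activated fibroblasts (Postn, Cthrc1, Meox1, Acta2, Tnc and Comp) were read in the same way. After TAC 5 of 6 were called higher in HCN4F, beside 1.58% of all genes, with a median log2 fold change of 1.85. Of these, Cthrc1 had at most 6 counts in HCN4F-Sham and 29 in HCN4F-TAC, and its ranges overlapped. Acta2, the actin of smooth muscle and myofibroblasts, was the exception, at -0.33 ± 0.20. In WT 0 of 6 were called with edgeR, beside 0.706% of all genes, and 0 by DESeq2, with a median of 0.10. There 2 had an unadjusted p under 0.05 with edgeR, Acta2 (lower, -0.58 ± 0.25) and Tnc (higher, 0.84 ± 0.31). The interaction of genotype and surgery passed an adjusted p of 0.05 for 0 of the 6 with edgeR (0.47 for Postn and for Meox1, 0.42 for Comp), with 3 at an unadjusted p under 0.05 and 1 passing with DESeq2. Periostin (Postn), a matrix protein of activated fibroblasts, differed by 2.07 ± 0.32 (adjusted p = 0.00189, edgeR quasi-likelihood) in HCN4F and by 0.69 ± 0.38 (adjusted p = 0.32) in WT. Between the genotypes after TAC 0 of the 6 were called with edgeR, with 5 at an unadjusted p under 0.05 and 4 called by DESeq2, beside 0.569% of all genes with that tool. The ranges of 5 were apart, all higher in HCN4F, beside 11.3% of all genes, and the median was 1.43. The part that fibroblast number or state has in the levels of Frzb, Sfrp1, Sfrp2, Dkk3 and Wisp2 was not tested.

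HCN4F-TAC replicate 2 had the highest sum of atrial markers (31.1 CPM), beside a Myl2 level of 5039 CPM or more. It was the highest HCN4F-TAC library for Frzb, Sfrp1, Dkk3 and Wif1. Without it the differences between TAC and Sham in HCN4F were 1.59 for Frzb, 0.43 for Sfrp1, 1.84 for Sfrp2 and 1.29 for Wisp2 (log2), so that Frzb, Sfrp2, Dkk3 and Wisp2 remained past the threshold. The same 4 genes were past it without replicate 3, at 2.01, 2.18, 2.36 and 1.47. The epicardial and mesothelial markers of a list of 5 genes summed to 15.2 CPM in HCN4F-Sham replicate 2 and 4.62 to 10.9 CPM in all other libraries. HCN4F-Sham replicate 2 also had the highest Sfrp5 level, but other libraries went the other way. HCN4F-TAC replicate 4, at 10.9 CPM of these markers, had the lowest Sfrp5 level (0.203 CPM). HCN4F-Sham replicate 1 had 4.71 CPM of these markers and 2.07 CPM of Sfrp5. The part of atrial, epicardial or mesothelial cells in the values was not tested.

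**Figure D4:**
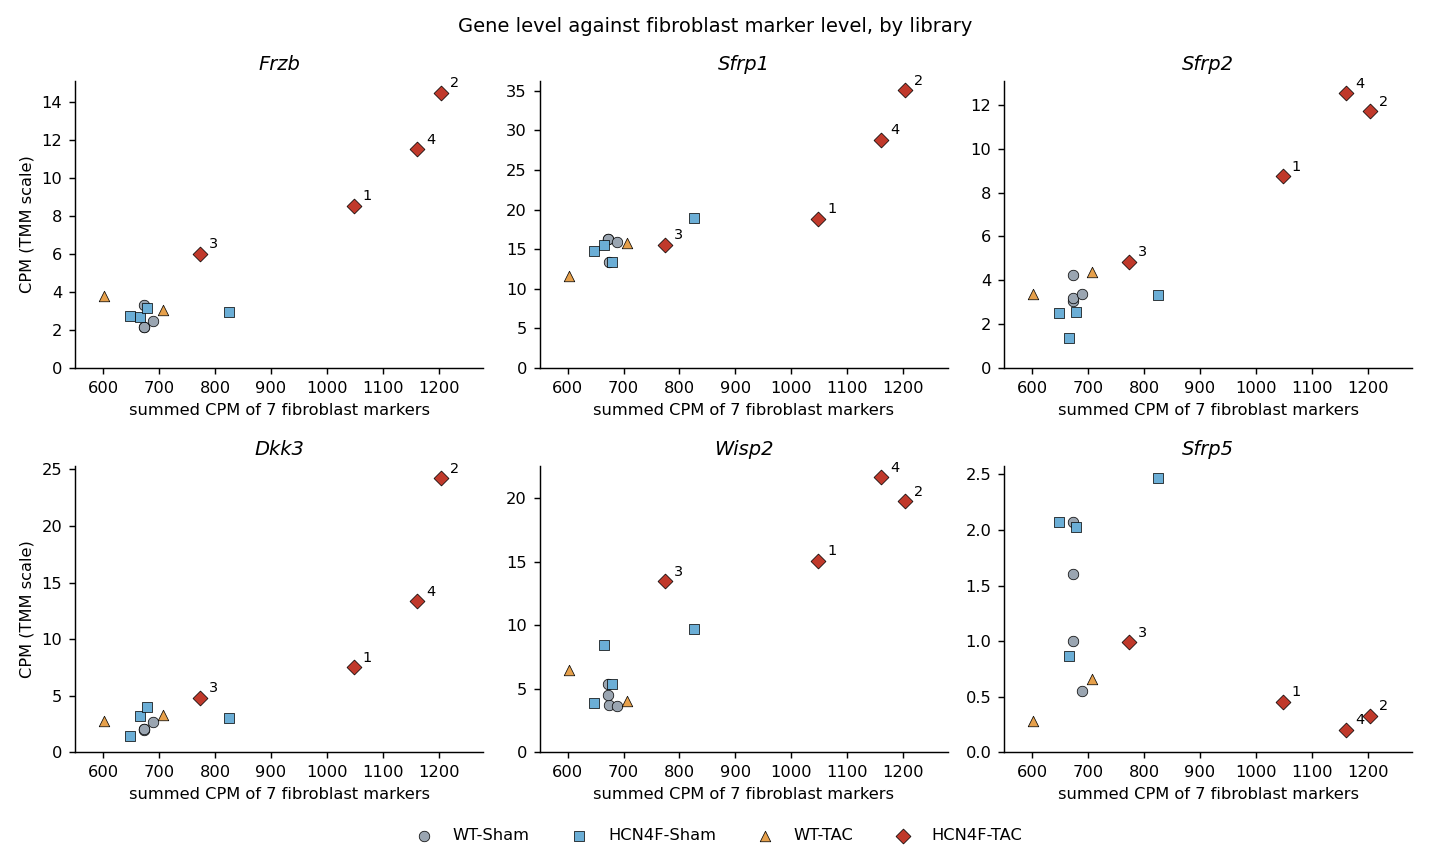
CPM of 6 genes (vertical axes, from 0) against the summed CPM of 7 fibroblast markers (horizontal axis) in each library, with HCN4F-TAC libraries numbered by replicate. Replicate 3, at 774 CPM of fibroblast markers, is the lowest HCN4F-TAC library for Frzb, Sfrp1, Sfrp2, Dkk3 and Wisp2 and the highest one for Sfrp5.

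Other genes followed some of the 10 closely over the 14 libraries. By Pearson correlation of log2 CPM, a description without a test over libraries that share their groups, Frzb was most like Ltbp2 (r = 0.98), which encodes a matrix protein of the latent TGF-β binding family, and Cttn was also near (r = 0.97). Sfrp1 was most like the gelatinase gene Mmp2 (0.95), then Aebp1 (0.94). Sfrp2 was most like Dpysl3 (0.98), Col15a1 (0.96) and Thbs4 (0.95). For Dkk3 the nearest were Prelp, Postn and Fn1 (each 0.96), of which Fn1 encodes fibronectin. For Wisp2 they were Arpc5 (0.96), Emilin1 (0.95) and Mxra7 (0.94). The likeness was lower for the genes with few counts, with Itfg2 for Sfrp5 (0.91), BC022687 for Wisp1 (0.88) and Wbp2 for Wif1 (0.80).

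Among the 8 fitted genes themselves Frzb and Dkk3 were most alike (r = 0.94, 14 libraries), then Frzb and Wisp2 (0.90) and Frzb and Sfrp2 (0.89). Sfrp5 ran against them, with r = -0.66 to Frzb and to Dkk3, and Wif1 had r = -0.05 to Sfrp1 and -0.29 to Frzb. The group differences above are part of each of these values.

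The rest of the pathway was read from a list of 85 further genes ordered by role, of which 61 had enough reads. TAC against Sham called 2 of the 61 higher and 0 lower in WT, beside 0.706% of all genes in either direction, and 2 higher and 1 lower in HCN4F, beside 2.75%. The medians of the 61 were 0.12 and 0.04 (log2). Between the genotypes 1 was called higher and 1 lower after Sham surgery, beside 0.209% of all genes, and 0 higher and 1 lower after TAC, beside 0.0719%. The ranges of TAC and Sham in WT were apart, higher, for 22 of the 61, beside 19.2% of all genes. The adjusted p-values that follow come from edgeR (quasi-likelihood) and were adjusted by Benjamini-Hochberg over the whole table.

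Of 19 Wnt ligands 9 had enough reads and 0 were called in any comparison. Wnt5a, a ligand of the non-canonical branch, was the most abundant by CPM, with 6.39 to 14.2 CPM, and Wnt9a had 5.62 to 8.92 CPM. TAC in HCN4F gave -0.04 ± 0.18 for Wnt5a (adjusted p = 0.91) and 0.41 ± 0.11 for Wnt9a (adjusted p = 0.0243, under the fold threshold). Wnt11 was lower, by -0.69 ± 0.17 (adjusted p = 0.0117, also under the fold threshold), with ranges apart. Of the 9 ligands 4 were above 0 and 5 below in this comparison. Wls, which carries ligands to the cell surface, was at 25.6 to 35.0 CPM and differed by 0.04 ± 0.10 (adjusted p = 0.84), and Porcn, which acylates them, by -0.28 ± 0.18 (adjusted p = 0.32).

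Of 16 receptors and coreceptors 15 had enough reads and 0 were called. Fzd1 rose with TAC under the fold threshold, by 0.47 ± 0.12 in WT (adjusted p = 0.037) and 0.66 ± 0.10 in HCN4F (adjusted p = 0.000405). The coreceptor Lrp5 (101 to 137 CPM) and the receptor Fzd4 (61.2 to 105 CPM) had the highest counts, and TAC in HCN4F gave 0.16 ± 0.08 (adjusted p = 0.20) and -0.19 ± 0.15 (adjusted p = 0.43). In the R-spondin system, whose ligands hold Frizzled receptors at the surface, 4 of 9 had enough reads. Rspo1 was called lower by TAC in HCN4F, with -1.57 ± 0.48 (adjusted p = 0.0376), and was at -1.74 ± 0.68 (adjusted p = 0.14) in WT, where it was not called but WT-Sham (0.392 to 0.508 CPM) and WT-TAC (0.123 and 0.143 CPM) did not overlap. With edgeR on the compared groups alone it was called in WT (-1.72, adjusted p = 0.0278) and not in HCN4F (-1.58, adjusted p = 0.10). It was at 0.414, 1.14, 0.795 and 0.332 CPM in HCN4F-Sham and 0.0829, 0.0988, 0.212 and 0.488 CPM in HCN4F-TAC, so these HCN4F groups overlapped at 2 to 25 counts per library. The call for Rspo1 was lost without HCN4F-Sham replicate 2 (-1.22) or 3 (-1.47) and without HCN4F-TAC replicate 1 (-1.33), 2 (-1.31) or 3 (-1.56). Of the R-spondin receptors, Lgr6 gave -0.50 ± 0.13 by TAC in HCN4F (adjusted p = 0.0197, under the fold threshold) and -0.02 ± 0.16 in WT (adjusted p = 0.95). Lgr4 gave 0.29 ± 0.14 in HCN4F (adjusted p = 0.19) and 0.61 ± 0.17 in WT (adjusted p = 0.0493, under the fold threshold), and the interaction passed for neither (adjusted p = 0.50 for Lgr6 and 0.68 for Lgr4).

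Among the other extracellular antagonists, which include close relatives of the DKK genes, Dkk1 and Cer1 had 0 counts in every library and Dkk4 and Dkkl1 at most 1 and 2 counts. Sost, which encodes sclerostin, was at 0.325 to 2.00 CPM and gave 0.40 ± 0.40 by TAC in HCN4F (adjusted p = 0.55). Kremen1, a receptor that binds Dickkopf proteins together with the LRP coreceptors, was the most abundant gene of this role. It was at 144, 165, 174 and 141 CPM in WT-Sham, 170, 116, 152 and 139 CPM in HCN4F-Sham, 235 and 272 CPM in WT-TAC and 261, 303, 246 and 254 CPM in HCN4F-TAC. All TAC libraries were above all Sham libraries. The differences, 0.70 ± 0.13 in WT (adjusted p = 0.0108) and 0.88 ± 0.11 in HCN4F (adjusted p = 9.32e-05), passed the p threshold but not that on the fold.

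Of the 4 CCN relatives of the WISP genes 3 had enough reads, and with TAC 1 was called higher in WT and 2 in HCN4F. Cyr61, an early response gene of this family, was at 39.96 to 43.4 CPM in WT-Sham, 70.5 to 89.1 in HCN4F-Sham, 111 and 154 in WT-TAC and 141 to 226 in HCN4F-TAC. It rose with TAC by 1.68 ± 0.15 in WT (adjusted p = 7.40e-05) and 1.23 ± 0.13 in HCN4F (adjusted p = 3.01e-05), and it was higher in HCN4F than in WT after Sham surgery by 0.91 ± 0.13 (adjusted p = 0.00349, under the fold threshold). Ctgf, the connective tissue growth factor gene, rose by 1.90 ± 0.30 in HCN4F (adjusted p = 0.00184) and was at 0.98 ± 0.34 in WT (adjusted p = 0.12). The WT-TAC libraries were far apart, with 217 CPM in replicate 2 and 98.0 CPM in replicate 3, against 63.0 to 94.7 CPM in WT-Sham. Nov gave 0.05 ± 0.27 in WT and 0.12 ± 0.23 in HCN4F, and Wisp3 was at 12 counts or fewer and was not fitted.

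Of 16 intracellular components all had enough reads. β-catenin (Ctnnb1, 259 to 330 CPM) gave 0.13 ± 0.08 by TAC in WT (adjusted p = 0.39) and 0.14 ± 0.07 in HCN4F (adjusted p = 0.20), and Csnk1a1, a kinase of the β-catenin destruction complex, 0.32 ± 0.11 (adjusted p = 0.10) and 0.24 ± 0.09 (adjusted p = 0.098). Dixdc1, which encodes a DIX domain protein of the Dishevelled and Axin kind, was the call between genotypes. It was at 5.31 to 7.06 CPM in WT-Sham and 1.62 to 2.44 CPM in HCN4F-Sham, and at 3.74 and 4.75 CPM in WT-TAC and 1.08 to 1.59 CPM in HCN4F-TAC. HCN4F was lower by -1.61 ± 0.16 after Sham surgery (adjusted p = 4.58e-05) and -1.67 ± 0.20 after TAC (adjusted p = 0.000595), with no overlap in either. On the compared groups alone the difference after TAC was -1.67 and not called (adjusted p = 0.0572, edgeR quasi-likelihood). The interaction of genotype and surgery for Dixdc1 was -0.06 ± 0.25 (adjusted p = 0.97). An effect of the exchanged amino acid and another difference between the mouse lines cannot be told apart here.

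Of 9 targets and feedback genes of canonical signalling 7 had enough reads. Axin2, the feedback gene most often read as a sign of β-catenin activity, gave 0.41 ± 0.25 by TAC in WT (adjusted p = 0.35), -0.22 ± 0.20 in HCN4F (adjusted p = 0.51) and 0.58 ± 0.20 between the genotypes after Sham surgery (adjusted p = 0.20). By TAC in HCN4F 5 of the 7 were above 0 and 2 below, Axin2 among the latter, with a median of 0.30 and 0 called. The feedback gene Nkd2 gave 0.74 ± 0.25 (adjusted p = 0.053). Between the genotypes after TAC 5 of the 7 were above 0 and 2 below, with a median of 0.28 and 0 called. Axin2 and Nkd2 are named outside the rule on named genes, after their values were seen. Ccnd1, the cyclin D1 gene, gave 0.30 ± 0.13 by TAC in HCN4F (adjusted p = 0.14). Myc was at 1.68 to 2.81 CPM in WT-Sham, 5.03 to 9.98 in HCN4F-Sham, 6.64 and 12.1 in WT-TAC and 9.61 to 12.5 in HCN4F-TAC. It rose with TAC in WT by 1.93 ± 0.27 (adjusted p = 0.00263), was higher in HCN4F than in WT after Sham surgery by 1.51 ± 0.24 (adjusted p = 0.0123) and differed by 0.66 ± 0.21 with TAC in HCN4F (adjusted p = 0.0511).

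**Figure D5:**
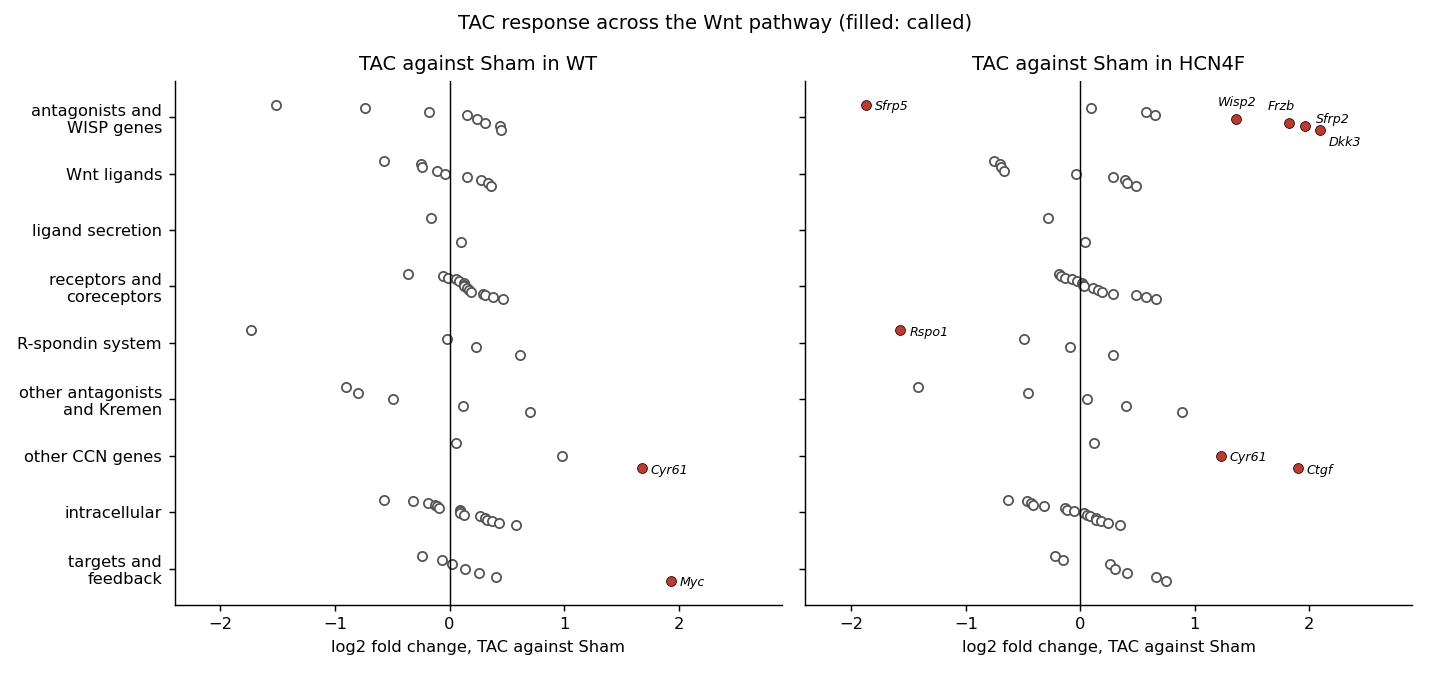
Log2 fold change of TAC against Sham in WT (left) and HCN4F (right) for the 8 fitted antagonists and WISP genes and for the 61 other pathway genes by role (1 point per gene, filled and named where called). The antagonists and WISP genes called in HCN4F lie between 1.36 and 2.09 and at -1.87, and most ligands, receptors and intracellular genes lie within 1 of 0.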

How the data were processed

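RNA-seq was performed by the authors on left ventricular RNA. They deposited counts of reads for each gene and library, without normalization. The submitters' processing notes name the genome build GRCm38; aligner, counting program, annotation and use of strand are not given in the sources used here. Groups and replicate numbers were taken from the sample labels. The count table holds 2 further columns that match no sample assigned here, and they were not used. Another 174 rows carry an identifier without a symbol.

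Genes were filtered with filterByExpr and scaled with TMM in edgeR 4.0.16 (R 4.3.3). All 14 libraries were fitted in 1 model with a mean per group, and comparisons used the quasi-likelihood test (robust) with Benjamini-Hochberg adjustment over 15292 genes, after tests on simulated data. Calls needed an adjusted p below 0.05 and a log2 difference of more than 1 in size. Log2 CPM used a prior count of 2. Exon lengths and positions are from GENCODE M21 (GRCm38), which matched 99.3% of the identifiers. Alternatives were DESeq2 1.42.0, the compared groups alone, DESeq2's size factors, no filter, the adjusted p alone, a replicate block and leaving out each library.

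The 10 genes and all lists were chosen with earlier results of these data known. Named are all 10 genes, each listed pathway gene that was called, the 2 with the highest CPM per role, and the 3 genes most like each member with a mean of at least 1 CPM (the nearest alone is given for Sfrp5, Wif1 and Wisp1, and some of the others are not reported here). A few genes were added for contrast after their values were seen: Dkk1, Cer1, Dkk4, Dkkl1, Nov, Wisp3, Axin2, Nkd2, Wnt11 and Fzd1. Replicates are described as separate animals, and p-values measure the spread between them.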

Additional observations from a re-analysis of the deposited data

Results flagged for a closer look

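In WT-Sham the replicate 1 library was lowest for Sfrp1, with 13.4 CPM, while the other 3 libraries lay between 15.9 and 16.3 CPM, a gap larger than Dixon's 95% limit allows for 4 libraries. It was 1 of 30 groups of 4 libraries looked at over the 10 genes, and chance flags about 1 in 20.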

How the results depend on the processing

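The fold changes of the 8 fitted genes were recomputed 608 times over 4 comparisons, and 606 moved by less than 1 SD between replicates. The other 2 were both Wif1 without WT-TAC replicate 2, and 0 called genes changed sign. The count called between the genotypes after TAC (1 gene) was 4 with DESeq2, 0 with edgeR on the compared groups alone and 0 to 5 when leaving out 1 library, with 5 reached without HCN4F-TAC replicate 3. With the replicate block it was 0, and Rspo1 was lost between TAC and Sham in HCN4F; the block changed no other call of the 10 genes. Numbers do not pair the samples, since same-numbered libraries correlated by -0.12 to 0.16 in 18 pairs and 2 were over 0.1. By adjusted p alone 7 other pathway genes passed between TAC and Sham in WT and 12 in HCN4F. Dixdc1 was not called on the compared groups alone, which left 0 pathway genes between the genotypes after TAC, and 1 to 2 were called when leaving out 1 library. The interaction was passed by 1 Wnt gene with DESeq2 and by 0 to 3 when leaving out 1 library, with Frzb, Sfrp2 and Bcl9 without HCN4F-TAC replicate 3. With edgeR on the compared groups alone Rspo1 was called in WT and lost in HCN4F. In HCN4F the call of Sfrp5 was lost with no filter. Causes were not tested. Leaving out a WT-TAC library leaves 1, which is then assumed to vary like the other groups. With 2 WT-TAC libraries the SEs in the 4 comparisons reached 0.59 for Dkk3, 0.63 for Wif1 and 0.69 for Sfrp5 (log2).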
